A study of Homo sapiens with 6 samples.

Results

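The genes described here make the cell surface display of HLA class I and load it with peptide. There are 9 of them among the 39012 rows of the table, chosen by gene symbol for what they are known to do: the class I heavy chain genes HLA-B, HLA-C, HLA-E and HLA-F, the light chain gene B2M, the peptide transporter genes TAP1 and TAP2, the tapasin gene TAPBP, and NLRC5, the transactivator of the pathway. Of the 9 genes 7 lie on chromosome 6, B2M on chromosome 15 and NLRC5 on chromosome 16. All 9 had reads in every library.

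The material was RNA-seq of Jurkat, an established human T cell leukaemia line. The control group was 3 libraries of cells with an empty vector (EV), and the other group was 3 libraries of cells that stably overexpressed SCML4, a Polycomb-family protein. All 6 libraries came from cells stimulated for 6 h with PMA (100 ng/ml) and ionomycin (1 µM), and no unstimulated sample is analysed here. The labels do not say whether the cells of a group were 1 clone or whether its libraries came from separate cultures, and p-values then reflect no more than library-to-library spread, part or all of which may be technical.

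A class I molecule is a heavy chain paired with beta-2-microglobulin, the product of B2M. The TAP1 and TAP2 proteins form the pump that carries peptides cut by the proteasome into the endoplasmic reticulum, and tapasin bridges that pump to empty class I molecules while peptide is chosen. In lymphocytes NLRC5 raises transcription of these genes by docking on factors bound to a promoter module called SXY, and interferon and NF-κB act through neighbouring elements. Class I genes are known to be kept low by the Polycomb repressive complex PRC2 in some tumours, and on T cells the class I display is what other killer cells read.

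The libraries held 8953671 to 10336597 reads, worked out from the steps of the deposited FPKM values, and levels are given as CPM, the reads of a gene scaled to a common library total. SCML4 itself had 7, 2 and 1 reads in the EV libraries against 570, 657 and 506 with overexpression, in the direction of the labels. Its log2 difference was 1.88 on log2(FPKM + 1), where the added 1 outweighs its FPKM in EV, and it missed the adjusted threshold in limma-trend (adjusted p = 0.0619). In limma-voom on reads it was 7.56 and passed (adjusted p = 1.46e-06). All 10 T cell markers listed had reads in every library, and the myeloid markers LYZ, FCGR3A and MARCO, the NK markers NCR1 and FCGR3A and the epithelial markers EPCAM and CDH1 were at 0 in all 6. The 4 NK markers summed to 0.103 to 0.223 CPM in EV and 0 to 0.441 in SCML4, from NCAM1 and KLRF1. The 3 epithelial markers summed to 0 to 0.103 CPM in EV and 0 to 0.193 in SCML4, from KRT5. The 4 fibroblast markers summed to 1.66 to 2.68 CPM in EV and 1.45 to 2.23 in SCML4, all from COL1A1 with 13 to 24 reads. The 5 B cell markers summed to 21.6 to 33.9 CPM in EV and 30.7 to 33.0 in SCML4, nearly all of it CD79A with 207 to 338 reads, with PAX5 at 0; the myeloid list summed to 0.517 to 0.669 CPM in EV and 0.221 to 0.871 in SCML4. The 4 dendritic cell markers summed to 150 to 175 CPM in EV and 189 to 191 in SCML4, all of it from CD1C and LAMP3, with CLEC9A and FCER1A at 0; the part of this in the results was not tested. EV replicate 1 stood apart on the first principal component (-38.6, the others between 0.35 and 11.6). Its deviations across 13347 genes, which are not independent replicates, had a Spearman correlation of -0.52 with GC content, against 0.04 to 0.30 in the other 5. Of the 9 genes 8 have a GC content (54.8% to 60.2%) above the median of 48.8% of measured genes, B2M at 39.1% being the exception. The plot of differences therefore gives every gene without EV replicate 1 as well.

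Set against transcript length, the light chain was the most abundant message of these 9 genes and HLA-F the scarcest. B2M stood at 1016 ± 32.1 CPM per kilobase of transcript (mean ± SD over the 6 libraries). HLA-C followed at 118 ± 5.82, HLA-B at 67.0 ± 8.87 and HLA-E at 42.8 ± 6.27. TAPBP at 42.4 ± 2.12 could not be told apart from HLA-E, the ranges of the libraries overlapping. TAP2 at 32.4 ± 2.27 and TAP1 at 21.6 ± 0.987 came next. NLRC5 stood at 4.55 ± 0.656 and HLA-F at 1.43 ± 0.250. Between all other neighbours in this order the 6 libraries did not overlap. Lengths were those of a RefSeq-matched GENCODE 29 transcript of each gene. With the length of all its exons in place of that transcript, HLA-E moved ahead of HLA-B and TAP1 ahead of TAP2, so those orders depend on the length used.

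**Figure D1:**
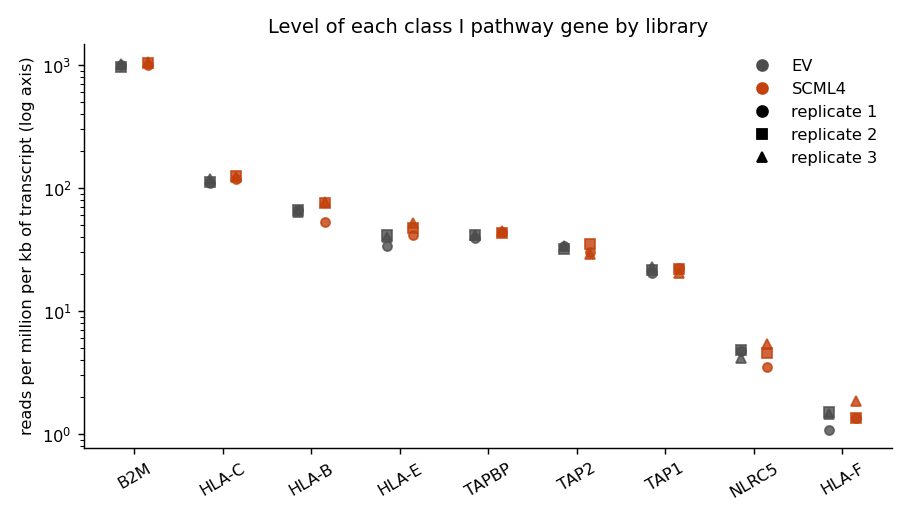
Level of each gene in each library, in CPM per kilobase of transcript on a log axis, with EV in grey and SCML4 in orange and symbols for replicates. B2M lies near 1016 and HLA-F near 1.43, and within each gene the EV and SCML4 points lie close together compared with the distances between most genes.

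None of the 9 genes passed the test between SCML4 and EV, and the 95% intervals of the folds of FPKM + 1 reached from 0.740 (NLRC5) to 1.47 (HLA-E). On reads, in limma-voom, the interval of HLA-F was wider, 0.707 to 1.79. The test was limma-trend on log2(FPKM + 1) over 15357 genes with Benjamini-Hochberg adjustment, threshold 0.05. It called 0 of the 9 genes where 0.0% of all genes tested were called. At an unadjusted p under 0.05 it again had 0 of 9, against 5.09% of all genes, and limma-voom on the recovered reads had 1 of 9, HLA-E, against 5.27%. At its adjusted threshold limma-voom called 0 of the 9 and 0.00706% of all genes. SCML4 libraries were on average higher for 7 of the 9 genes, against 51.7% of all genes, and in limma-voom for 7 of the 9 against 52.4%. After correction of reads for GC content and length it was 5 of the 9, against 50.7% of genes, with HLA-B, TAP1, TAP2 and NLRC5 lower. The median log2 difference of the 9 was 0.05, that of all genes 0.01. The median of the 9 was 0.13 without SCML4 replicate 1 and 0.0072 with GC content and length corrected for, where that of all genes was 0.0018. The 3 libraries of each group did not overlap in 2 of the 9 genes, HLA-C and TAPBP, both higher with SCML4, against 6.02% of all genes in that direction.

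**Figure D2:**
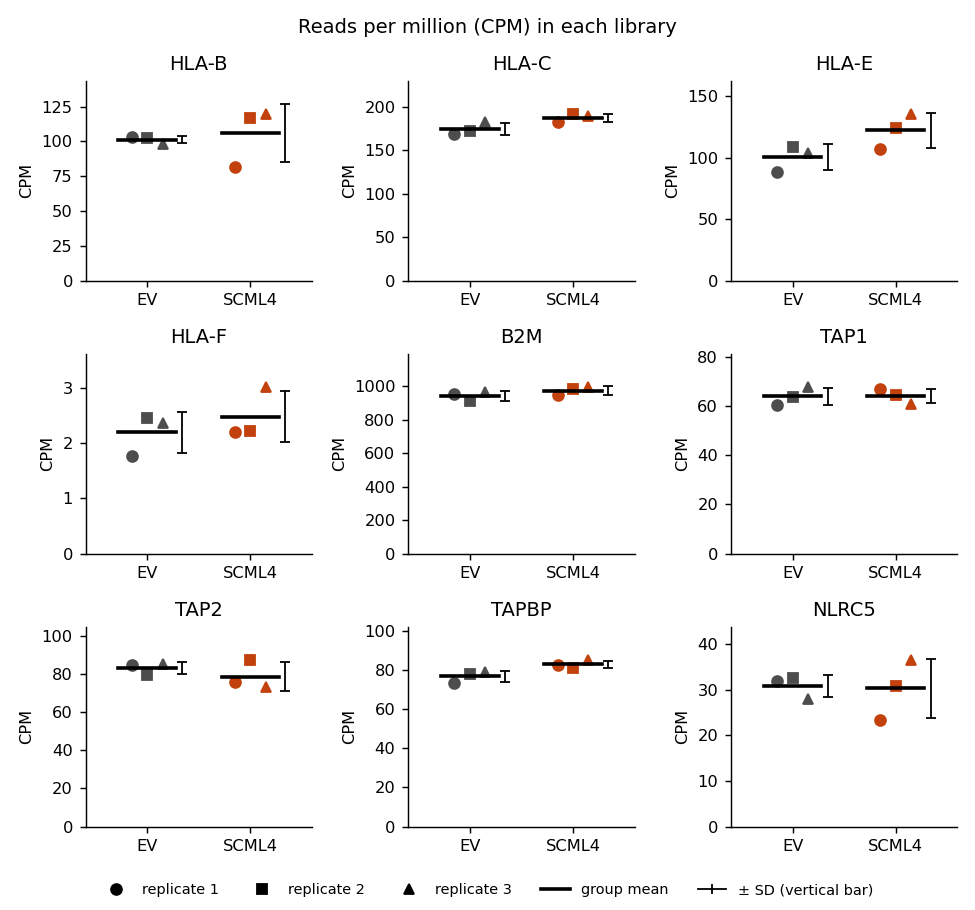
CPM of each gene in each library, with symbols for replicates, thick bars for group means and thin bars for the SD of 3 libraries; each panel starts at 0. HLA-C and TAPBP are the genes whose groups do not overlap, and SCML4 replicate 1 is the lowest library of HLA-B and of NLRC5.

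NLRC5, the regulator, had its extremes within the SCML4 group and the widest interval of the 9 on log2(FPKM + 1), though not in limma-voom, where that of HLA-F was wider. It had 307, 292 and 272 reads in EV against 213, 320 and 327 in SCML4. This is 31.9, 32.6 and 28.1 CPM in EV against 23.5, 31.0 and 36.5 in SCML4. The SCML4 libraries thus enclosed all EV libraries, from the lowest value of the 6 in replicate 1 to the highest in replicate 3. The means were 30.8 ± 2.40 and 30.3 ± 6.53 CPM (SD, n = 3 each). The log2 difference was -0.04, with a 95% interval of -0.44 to 0.35 (limma-trend, adjusted p = 0.977). Without SCML4 replicate 1 the difference was 0.13, so that library sets its sign.

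HLA-B and HLA-C encode heavy chains that present peptide to CD8 T cells, and their coding sequences are the most alike of those compared here, 92.4% identical over 1089 aligned bases of the reference transcripts. HLA-E, which shows leader peptides of other class I chains to the NKG2A receptor, was 86.4% identical to HLA-B, and HLA-F, a heavy chain of restricted expression, 85.6%. Such paralogues can take each other's reads. Of 50-base windows of the reference transcript, 2.54% in HLA-B, 6.79% in HLA-C, 5.13% in HLA-E and 1.70% in HLA-F occur exactly in a transcript of another gene, and of 100-base windows at most 0.6%. The sources used here do not give how reads with several matches, or reads of HLA alleles unlike the reference, were treated, so levels of these genes are uncertain to that degree.

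The upstream stretches of the heavy chain genes HLA-B, HLA-C and HLA-F are printed, and that of B2M because its chain pairs with them all. No window was available for HLA-E, and whether these stretches bear on level was not tested. The stretches are the 200 bases before the RefSeq transcription start (GRCh38.p14), written 5′ to 3′ on the strand of the gene. Capitals mark 4 motifs searched on both strands: the NF-κB consensus, an interferon regulatory factor core GAANNGAAA, the X2 half-site TGACG and the Y-box letters CCAAT. Adjoining or overlapping matches run together.
HLA-B (chr6:31357180-31357379, minus strand): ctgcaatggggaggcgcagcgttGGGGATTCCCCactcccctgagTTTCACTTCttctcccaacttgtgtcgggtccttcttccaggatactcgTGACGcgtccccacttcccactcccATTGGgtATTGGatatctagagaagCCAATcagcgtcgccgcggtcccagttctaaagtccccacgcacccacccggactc
HLA-C (chr6:31272093-31272292, minus strand): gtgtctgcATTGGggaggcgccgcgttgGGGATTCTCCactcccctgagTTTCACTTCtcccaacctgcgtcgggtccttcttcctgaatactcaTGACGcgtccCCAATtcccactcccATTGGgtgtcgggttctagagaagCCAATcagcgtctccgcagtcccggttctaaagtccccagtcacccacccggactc
HLA-F (chr6:29723234-29723433, plus strand): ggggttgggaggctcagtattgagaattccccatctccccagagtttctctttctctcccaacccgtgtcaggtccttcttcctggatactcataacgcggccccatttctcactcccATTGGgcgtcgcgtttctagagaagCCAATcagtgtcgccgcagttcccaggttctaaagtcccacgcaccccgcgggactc
B2M (chr15:44711317-44711516, plus strand): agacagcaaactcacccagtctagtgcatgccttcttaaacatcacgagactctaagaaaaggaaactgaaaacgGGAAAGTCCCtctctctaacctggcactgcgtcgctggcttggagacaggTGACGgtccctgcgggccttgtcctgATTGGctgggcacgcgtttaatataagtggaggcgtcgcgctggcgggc

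Of the 4 motifs as written, the windows of HLA-B and HLA-C hold all, and that of HLA-F holds CCAAT alone. Over the full windows of 300 bases, which reach 50 bases past the start, HLA-B and HLA-C were 90.9% identical, HLA-B and HLA-F 82.4%. The B2M window holds the NF-κB consensus, TGACG and CCAAT. Among 35116 RefSeq windows of that length, 11.3% hold the NF-κB consensus, 7.7% GAANNGAAA, 24.6% TGACG and 34.6% CCAAT. Of the other genes, the TAP2 window holds GAANNGAAA and TGACG, and that of TAPBP the NF-κB consensus. TAP1 has 2 start windows in RefSeq, of which 1 holds the NF-κB consensus and CCAAT. A match is a run of letters and not a binding site, and the lack of a match does not show that an element is absent. GAANNGAAA misses strings with a longer gap, such as tttctctttc in HLA-F, gaaactgaaa in B2M, gaaagtgaaa in TAPBP and tttcgctttc in TAP1.

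HLA-B had nearly level values in EV and a wide spread in SCML4. The EV libraries held 994, 918 and 953 reads, and the SCML4 libraries 740, 1209 and 1070. This is 103, 102 and 98.4 CPM in EV against 81.6, 117 and 120 in SCML4. SCML4 replicates 2 and 3 were above every EV library and replicate 1 below all of them. The 95% exact Poisson intervals were 75.9 to 87.7 CPM in SCML4 replicate 1 and 110 to 124 in replicate 2. These intervals cover counting error only, and the source of the spread was not tested. The means were 101 ± 2.54 and 106 ± 21.2 CPM (SD, n = 3 each). The log2 difference was 0.04 (95% interval -0.31 to 0.40, adjusted p = 0.975 in limma-trend). It was 0.22 without SCML4 replicate 1 and -0.05 without SCML4 replicate 3.

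HLA-C, the most abundant of these heavy chain messages, was higher in every SCML4 library than in any EV library, by a narrow margin. It had 1628, 1541 and 1761 reads in EV against 1653, 1978 and 1691 in SCML4, or 169, 172 and 182 CPM against 182, 191 and 189. EV replicate 3 at 181.9 and SCML4 replicate 1 at 182.4 CPM nearly touch. The log2 difference was 0.11 (95% interval -0.03 to 0.25), a fold of 1.08, and did not pass (adjusted p = 0.905 in limma-trend). Once reads were corrected for GC content and exonic length the difference was 0.01.

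HLA-E had the largest difference of the 9. It had 854, 976 and 1006 reads in EV against 972, 1282 and 1212 in SCML4. The CPM were 88.7, 109 and 104 in EV against 107, 124 and 135 in SCML4, and the groups overlapped because SCML4 replicate 1 lay below EV replicate 2. The means were 100 ± 10.5 and 122 ± 14.2 CPM (SD, n = 3 each). The fold of FPKM + 1 in limma-trend was 1.21 with a 95% interval of 0.999 to 1.47. The log2 difference of 0.28 with an SE of 0.12 did not pass in limma-trend (unadjusted p = 0.0505, adjusted p = 0.905). In limma-voom on reads the difference was likewise 0.28, with unadjusted p = 0.0173 and adjusted p = 0.858. Over 22 alternatives the difference kept its sign, at 0.19 to 0.37, and its adjusted p ran from 0.457 to 0.989. The lowest value of 0.19 was the one without EV replicate 1, the library with the least HLA-E; with correction for GC content and length it was 0.21 (limma-trend on reads, unadjusted p = 0.0272, adjusted p = 0.821).

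HLA-F was at the edge of detection, with 17, 22 and 23 reads in EV against 20, 23 and 27 in SCML4. That is 1.76, 2.45 and 2.38 CPM against 2.21, 2.23 and 3.02, with overlapping groups. The log2 difference of 0.10 on log2(FPKM + 1) had a 95% interval of -0.26 to 0.47, and at this depth a difference of that size is not detectable. It was 0.17 in limma-voom on reads (95% interval -0.50 to 0.84), 0.02 without EV replicate 1 and 0.01 without SCML4 replicate 3. HLA-F-AS1, annotated on the opposite strand over 12.3% of the exonic bases of HLA-F, had 5, 4 and 5 reads in EV against 4, 0 and 1 in SCML4. The sources used here do not give whether counting used strand, so reads of the pair cannot be told apart. On the opposite strand AL645939.1 covers 16.1% of the exonic bases of HLA-F and AL671883.2 17.8% of those of HLA-B. Neither name was among the genes measured.

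Within each library the share of HLA-E among reads of the 4 heavy chain genes described was 24.4%, 28.2% and 26.9% in EV against 28.7%, 28.5% and 30.3% in SCML4. The groups did not overlap, but EV replicate 2 and SCML4 replicate 2 were 28.2% and 28.5%. The means were 26.5% ± 1.92 and 29.2% ± 0.970 (SD, n = 3 each), with an exact two-sided permutation p of 0.1, the smallest that 3 against 3 allows, and 0.4 adjusted over 4 ratios. The share of HLA-B was 26.8% ± 1.52 and 25.2% ± 2.87, and that of HLA-C 46.1% ± 1.32 and 45.0% ± 3.39 (exact permutation p = 0.6 each). These ratios were chosen after the values had been seen.

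B2M had the narrowest interval of the 9 genes. It had 9164, 8148 and 9342 reads in EV against 8566, 10162 and 8893 in SCML4, which is 951, 909 and 965 CPM against 945, 983 and 993. SCML4 replicate 1 lay among the EV libraries and the other SCML4 libraries above them. The log2 difference was 0.05 with a 95% interval of -0.08 to 0.17, so that the data allow folds between 0.948 and 1.13 (adjusted p = 0.929 in limma-trend). B2M, the gene of low GC content, was the only one of the 9 whose difference moved upward on correction for GC content and length, to 0.11.

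TAP1 and TAP2, the pump subunits, had similar read counts and no shared direction. TAP1 had 583, 569 and 654 reads in EV against 605, 667 and 545 in SCML4, or 60.5, 63.4 and 67.6 CPM against 66.7, 64.5 and 60.9. The groups covered nearly the same range, and the log2 difference was 0.005 (95% interval -0.19 to 0.20, adjusted p = 0.997 in limma-trend). TAP2 had 814, 712 and 824 reads in EV against 685, 900 and 654 in SCML4, or 84.5, 79.4 and 85.1 CPM against 75.6, 87.1 and 73.0. SCML4 replicate 2 was its highest library and SCML4 replicates 1 and 3 its lowest. Its log2 difference was -0.08 (95% interval -0.29 to 0.13, adjusted p = 0.933 in limma-trend). Without SCML4 replicate 2 it was -0.15 and without SCML4 replicate 3 -0.03. There were 0.770 ± 0.0464 TAP1 reads per TAP2 read in EV against 0.819 ± 0.0721 in SCML4 (exact permutation p = 0.4, adjusted 0.6). Of the 9 genes TAP2 shares the most sequence: 80.2% of 50-base windows of its transcript also lie in transcripts of other GENCODE 29 genes. The model AL669918.1 shares 2064 exonic bases with it on the same strand. No gene of that name was among those measured, and how far the overlap bears on the TAP2 count is not known. PSMB8-AS1, on the opposite strand over 9.49% of the exonic bases of TAP1, had 73 to 95 reads.

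TAPBP, the gene of tapasin, was higher in all SCML4 libraries than in all EV libraries. It had 709, 702 and 764 reads in EV against 750, 841 and 762 in SCML4, or 73.6, 78.3 and 78.9 CPM against 82.7, 81.4 and 85.1. The means were 76.9 ± 2.90 and 83.1 ± 1.89 CPM (SD, n = 3 each), a fold of 1.08. The log2 difference of 0.11 had a 95% interval of -0.04 to 0.26 and did not pass (adjusted p = 0.905 in limma-trend). It was 0.08 without EV replicate 1, its lowest library, and 0.04 with GC content and length corrected for.

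**Figure D3:**
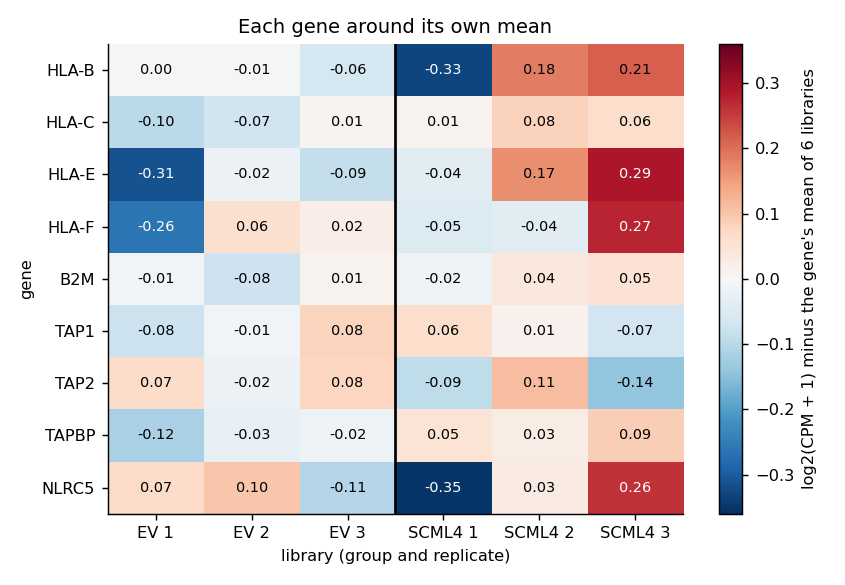
Log2(CPM + 1) of each gene minus its own mean over the 6 libraries, with genes in rows and libraries in columns, red above and blue below the mean. SCML4 replicate 1 is at -0.33 for HLA-B and -0.35 for NLRC5 while TAP1, TAPBP and HLA-C are slightly above their means there, and EV replicate 1 is at -0.31 for HLA-E and -0.26 for HLA-F.

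Read across libraries, the 9 genes did not move as a block. NLRC5 and HLA-B shared both extremes, lowest in SCML4 replicate 1 and highest in SCML4 replicate 3. HLA-C, HLA-E, HLA-F, TAP1 and TAPBP had their lowest value in EV replicate 1, B2M in EV replicate 2 and TAP2 in SCML4 replicate 3. TAP1 ran against HLA-B, with SCML4 replicate 1 above its mean and SCML4 replicate 3 below. On the average of the 9 centred genes the libraries lay between -0.08 in SCML4 replicate 1 and in EV replicate 1 and 0.12 in SCML4 replicate 3. Among 11397 other genes with at least 50 reads on average, those closest to this average over the 6 libraries were LINC00528 (Pearson r = 0.986), SIMC1 (0.986), UBE2R2 (0.985), C6orf89 (0.983) and PDE6B (0.982). In all 35 genes had an r over 0.95, and likeness over 6 libraries that share depth and GC effects is given as a description only.

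**Figure D4:**
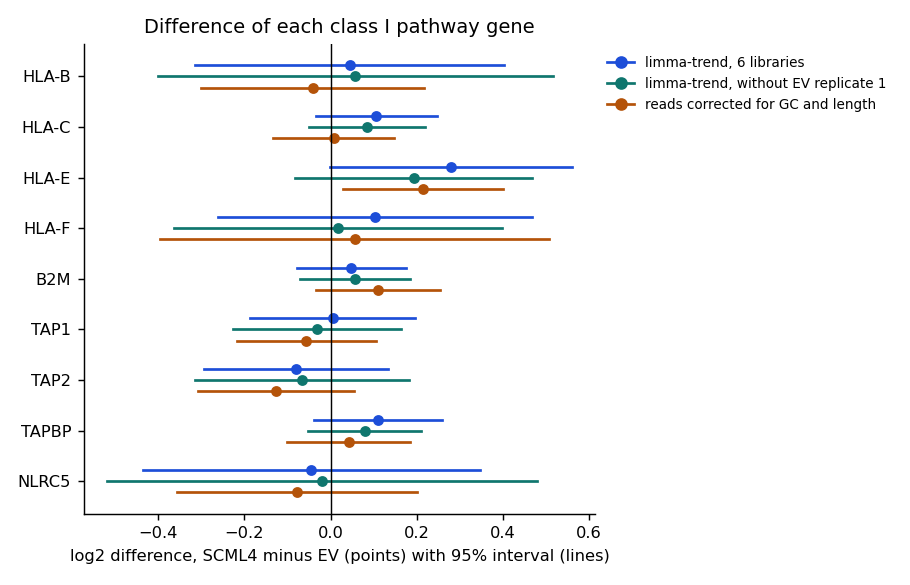
Log2 difference of each gene, SCML4 minus EV (points), with 95% intervals (lines), on log2(FPKM + 1) with all 6 libraries (blue) or without EV replicate 1 (green) and on log2(CPM + 1) of reads corrected for GC content and length (brown). HLA-E lies farthest from 0 at 0.28, 0.19 and 0.21, HLA-C goes from 0.11 to 0.01 with the correction, and B2M has a narrow interval, -0.08 to 0.17.

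The other genes of antigen processing and its control were read from 9 lists, and none of the 59 genes tested passed (0 of 59 at the adjusted threshold in limma-trend, 5 at an unadjusted p under 0.05, against 5.09% of all genes). Groups did not overlap in 4 of the 59 with SCML4 higher and 6 with SCML4 lower, against 6.02% and 5.27% of all genes. CALR, TAPBPL and IRF2 were among the 4, and ULBP1, ERAP2, RFXAP, IFNGR1, REL and EZH2 were the 6. In the list of peptide loading and folding factors 5 of 10 genes had positive differences, with a median of 0.03. CALR, the lectin chaperone calreticulin of the loading complex, stood at 515 ± 40.7 CPM in EV against 598 ± 24.7 in SCML4 (SD, n = 3 each), a log2 difference of 0.22, or 0.15 without EV replicate 1. TAPBPL, the peptide editor TAPBPR related to tapasin, stood at 16.3 ± 2.18 and 20.5 ± 0.485 CPM, a difference of 0.27 and 0.28. Both had groups that did not overlap, and neither passed (limma-trend, unadjusted p = 0.0335 and 0.0456, adjusted p = 0.905 for each). ERAP2, a peptidase that trims peptides for class I, stood at 174 ± 17.3 and 154 ± 1.75 CPM, a difference of -0.17, or -0.09 without EV replicate 1.

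The immunoproteasome and its activator had 4 of 5 positive differences with a median of 0.05. PSMB9, a catalytic subunit whose gene lies next to TAP1, stood at 34.7 ± 5.57 and 37.0 ± 2.83 CPM. The activator subunit genes PSME1 and PSME2 had differences of 0.10 and -0.06, and from 0.06 to 0.13 and from -0.09 to -0.02 with 1 library left out in turn. All 3 standard catalytic subunits had positive differences, PSMB5 at 0.08, PSMB6 at 0.05 and PSMB7 at 0.15. Single libraries moved these by over 1.5 times: without EV replicate 1 they were 0.03, 0.0043 and 0.11, and without SCML4 replicate 3 0.17, 0.12 and 0.28. Of 7 class I heavy chain relatives tested 5 had negative differences, with a median of -0.04. Among them were CD1D, which presents lipids, at -0.14, FCGRT, the neonatal Fc receptor, also at -0.14, and the NKG2D ligand ULBP1 at -0.06. Without EV replicate 1 CD1D was at -0.05 and FCGRT at -0.23. HLA-G had 0 reads in all 6 libraries, and 3 reads would be 0.290 to 0.335 CPM.

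Among factors that bind the SXY module, with the transactivator CIITA counted along, 5 of 9 differences were positive and the median was 0.002. RFXAP, a subunit of the RFX complex on the X box, stood at 50.5 ± 3.36 CPM in EV against 43.1 ± 0.835 in SCML4, a log2 difference of -0.20 with groups that did not overlap (limma-trend, adjusted p = 0.905). RFX5, another RFX subunit, had 0.08 and CREB1 -0.12, the latter -0.07 without EV replicate 1 and -0.03 with GC content and length corrected for. Interferon signalling genes split 6 and 6. IRF2, a regulatory factor of interferon-responsive genes, stood at 48.4 ± 2.73 and 55.8 ± 1.64 CPM, a difference of 0.21 (unadjusted p = 0.0184, adjusted p = 0.905 in limma-trend). The interferon gamma receptor genes IFNGR1 and IFNGR2 had -0.16 and 0.11, or -0.10 without SCML4 replicate 3 and 0.05 without EV replicate 2. IRF1 stood at 149 ± 4.34 and 149 ± 2.10 CPM.

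Of the NF-κB genes 4 of 5 had positive differences. REL stood at 39.6 ± 2.38 CPM in EV against 32.2 ± 2.21 in SCML4 without overlap, a difference of -0.25. RELB stood at 4.82 ± 2.08 and 7.72 ± 1.92, a difference of 0.43 on log2(FPKM + 1), which understates low genes, and of 0.76 in limma-voom on reads. Without EV replicate 1 the former was 0.22. NFKB2 had 0.14, and 0.08 without that library. In the core of PRC2, EZH2 had -0.17, SUZ12 -0.13 and EED 0.0003. EZH2 was highest in EV replicate 1, at 270 CPM against 198 to 221 in the other 5 libraries, and its difference without that library was -0.07, that of SUZ12 -0.06.

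Of the class II genes, HLA-DRA had 1 read in all, CD74 at most 5 reads a library and HLA-DQA1 none. The highest counts were those of HLA-DMA with 37 to 85, HLA-DOA with 36 to 57 and HLA-DOB with 22 to 37. CIITA, the class II transactivator, counted above with the SXY factors, had 19 to 37. HLA-DPA1 and HLA-DMB had 1 to 13 reads a library. HLA-DMA had a difference of 0.24, HLA-DOA of 0.08 and HLA-DOB of 0.04 on log2(FPKM + 1), and of 0.26, 0.20 and 0.07 in limma-voom. Without SCML4 replicate 3 HLA-DMA was at -0.03, without EV replicate 2 HLA-DOA at 0.02, and without EV replicate 3 HLA-DOB at -0.11. All 5 class II genes tested had positive differences (median 0.19), with wide intervals, -0.45 to 0.93 for HLA-DMA.

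**Figure D5:**
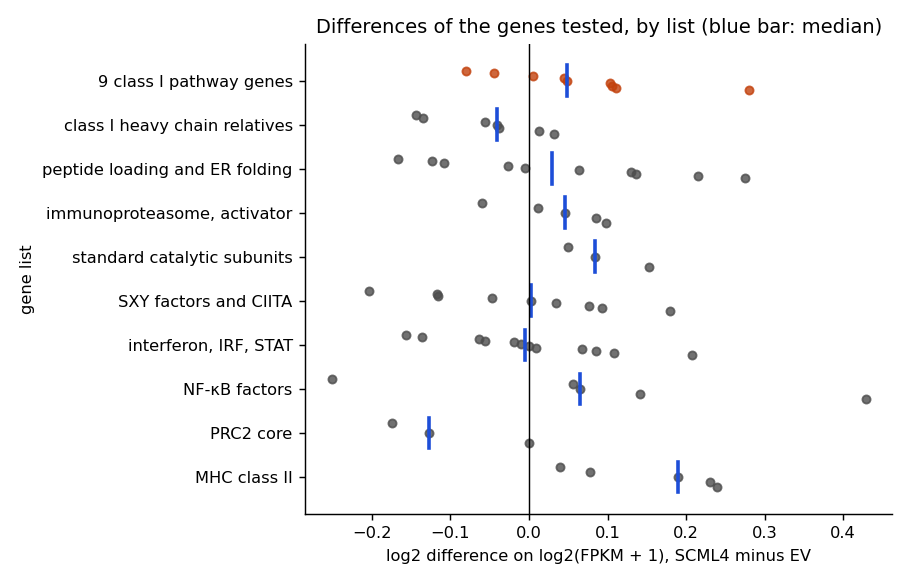
Log2 differences on log2(FPKM + 1), SCML4 minus EV, of the 9 class I pathway genes (orange) and of the genes tested in 9 further lists (grey), 1 point per gene, with the median of each list as a blue bar. The medians lie between -0.13 for the PRC2 core and 0.19 for class II, and no point passed the adjusted threshold.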

How the data were processed

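Per the file headers, the 6 columns used hold FPKM: the authors divided reads by a gene length and by library size. The submitters' processing notes name FastQC, STAR, SAMtools and the build hg19 and give no versions. No counting tool, annotation or length table is given in the sources used here. Reads and library totals were recovered from the steps of the FPKM values: 100% of 118664 values above 0, in 23897 genes, came out whole within 0.002 of a read. The lengths behind the FPKM are not those of the named genes (Spearman -0.005 with exonic length over 13344 genes), so levels are compared between genes only as recovered reads, per kilobase of a GENCODE 29 transcript.

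Differences are SCML4 minus EV on log2(FPKM + 1), from limma-trend (limma 3.58.1, R 4.3.3) on genes averaging 0.5 FPKM or more, with Benjamini-Hochberg adjustment over all genes and a threshold of 0.05. The intensity trend and the filter depend on those lengths. Limma-voom and limma-trend were also run on recovered reads of genes averaging 10 reads or more; the GC and length correction used lowess (span 0.3). The fits and the recovery were tested on simulated data. No duplicate libraries were found (chi-square per gene within a group 2.6 to 11.1).

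The genes and lists were chosen with earlier results of these data known. Named genes are SCML4, the 9 genes, up to 3 genes of smallest unadjusted p in each list (mean of at least 10 reads), genes overlapping the 9, and the 5 of most like pattern; other list genes are given by level alone. Promoter windows come from RefSeq, which held 7 of the 9 genes. Poisson intervals and floors of 3 reads cover counting error only.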

Additional observations from a re-analysis of the deposited data

How the results depend on the processing

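None of the 9 genes passed the threshold under any of the 23 alternatives run. The number of all genes called was 0 in the comparison as reported. It was 7 without a filter, 4 without the intensity trend, and 1 with library weights. On reads, limma-voom called 1, with library weights 14, with median-of-ratios scaling 1, with a replicate block 2, and without EV replicate 1 13; limma-trend called 1, or 3 after correction for GC content and length. Leaving out 1 library in turn gave 0 calls, and a median difference of the 9 genes of 0.034 to 0.13, the highest without SCML4 replicate 1; it was 0.0072 after correction for GC content and length. Same-numbered libraries did not deviate together (correlations -0.047 to -0.01). With 3 libraries a group and EV replicate 1 standing apart, this cannot exclude that the numbers pair them. The replicate block called 0 genes in limma-trend. Of 807 alternative values of single genes 26 had the other sign, all of them of genes that did not pass. With 1 library left out TAP1 ranged from -0.031 to 0.044, HLA-B from -0.052 to 0.22, NLRC5 from -0.19 to 0.13, HLA-DMA from -0.025 to 0.51, HLA-DOB from -0.11 to 0.22, PSMB6 from -0.028 to 0.12 and EED from -0.012 to 0.013. After correction for GC content and length HLA-B was at -0.042, TAP1 at -0.056 and PSMB6 at -0.021. TAP1 was at -0.0094 under quantile normalization, at -0.0107 with library weights, on FPKM and on reads alike, and at -0.033 in limma-voom without EV replicate 1. HLA-DOB was at -0.0069 with library weights and -0.0015 with them on reads. EED was at -0.016 under quantile normalization, -0.0021 with library weights, and on reads at -0.00060, -0.00098 with weights, -0.0034 with median-of-ratios scaling and -0.00093 without EV replicate 1. The cause was not tested. HLA-F and HLA-DOB rest on few reads, and the pseudocount shrinks their differences.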
